A study of Mus musculus with 18 samples.

Results

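The genes described here belong to the integrated stress response and to serine synthesis, and their RNA was followed across sorted brain microglia and astrocytes of control mice and of mice with an amyloid knock-in. They are a list of names with no threshold on a measured value, drawn up with earlier results of these data known: Atf4, Atf5, Ddit3, Trib3, Chac1, Asns, Psat1, Phgdh, Sesn2 and Hspa5, which are 10 of the 24421 gene symbols in each deposited count table. The series asked how both glial cell types respond in this model of Alzheimer's disease, and its title concerns the loss of complement C3. RNA of microglia and of astrocytes was sequenced in bulk after cell sorting from the whole brains of 9 mice of the strain C57BL/6j. The WT group held 4 mice (replicate 1 female, replicates 2 to 4 male) and the APP group 5 (replicate 1 male, replicates 2 to 5 female). The genotype of the second group is labelled APP_NLGF/NLGF: the mouse's own App gene carries a human amyloid sequence with disease mutations, so that no added promoter drives it. Every library name in both groups also carries C3WT, so C3-deficient mice are not analysed here. Library names share mouse numbers between the cell types, so each mouse gave 1 library of each. The mice were untreated, and the labels used here do not state their age.

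The integrated stress response starts with kinases that sense a lack of amino acids, unfolded protein in the endoplasmic reticulum (ER), double-stranded RNA or mitochondrial faults and that phosphorylate the translation factor eIF2. General translation then falls, while the mRNA of the transcription factor ATF4 is translated more, so that Atf4 mRNA is a poor guide to ATF4 protein. ATF4 and its partners switch on genes of amino acid uptake and synthesis, among them those that build serine from an intermediate of glycolysis, a pathway that in brain is known mainly from astrocytes, which supply serine to neurons.

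In microglia the total count of a library was 8834866 to 11700620 for WT mice and 11858295 to 18363154 for APP mice. In astrocytes it was 10569776 to 21865752 for WT mice and 18125387 to 22522407 for APP mice. The sorted cells carried the markers of their labels: the 13 microglial markers summed to between 43526 and 54126 CPM (read counts scaled to a common library total over the 18 libraries together) in microglia, and the 12 astrocytic markers to between 26649.9 and 50795 CPM in astrocytes. Set against the other library of the same mouse, the astrocytic markers in microglia libraries stood at 1.52% to 6.58% of their astrocyte level in WT and at 1.96% to 7.43% in APP. The microglial markers in astrocyte libraries stood at 0.242% to 0.304% in WT and at 0.590% to 0.839% in APP. Astrocyte libraries of WT replicates 1 and 4 stood apart, with 518 and 438 CPM over 12 endothelial markers against 2386 to 3836 CPM in the other 7 libraries, and with 50795 and 48881 CPM of astrocytic markers against at most 36563 CPM elsewhere. Microglia libraries of the same mice held 26.1 and 25.8 CPM of 9 mural markers, against 187 to 312 CPM in the others. In microglia, 7 markers of border macrophages summed to 1779 to 2061 CPM in WT and to 357 to 653 CPM in APP. No marker of these lists was at 0 in a whole group.

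Short DNA motifs connect several of these genes to the factors named above, and the stretches that hold them are printed here because they show which members carry a match near the start of transcription. The windows searched run from 250 bases before to 50 bases after each RefSeq start (GRCm38.p6), and all 10 genes matched, with 12 windows. The core of the C/EBP-ATF response element, the site that ATF4 binds with a partner, was searched on both strands as TGATGNAA and was found in 3 of the 12 windows, against 3.97% of 32851 windows genome-wide. The ER stress response element, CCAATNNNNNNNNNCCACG, was found in 1 of the 12, that of Hspa5, against 0.119% of all windows. A variant of the core with 1 other letter, TGGTGCAA, was picked by reading the windows of these genes, and it stands in those of Trib3 and Psat1. That choice fixed its presence there, so nothing is read from its share of all windows, 0.536%. Each stretch of 30 bases is written 5′ to 3′ on the strand of the gene, with the match in capitals. In Trib3 (core) and Chac1 the match is read on the opposite strand.
Trib3, core: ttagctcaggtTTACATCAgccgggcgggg
Chac1, core: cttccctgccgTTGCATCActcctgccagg
Asns, core: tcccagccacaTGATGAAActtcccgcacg
Trib3, variant: cgggtcacagaTGGTGCAAtcccgggccgc
Psat1, variant: acgcgggtggcTGGTGCAAtcccctgctct
Hspa5, ER stress response element: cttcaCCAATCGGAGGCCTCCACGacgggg
The core of Trib3 lies 15 bases after the start at chr2:152344028-152344057, and its variant 33 bases before it at chr2:152344075-152344104. The other stretches lie before the start, by 193 bases in Chac1 (chr2:119351038-119351067), 23 in Asns (chr6:7693214-7693243), 136 in Psat1 (chr19:15925177-15925206) and 65 in Hspa5 (chr2:34772020-34772049). A match is a run of letters and not a measured site, and the windows of Atf4, Atf5, Ddit3, Phgdh and Sesn2 held none of these letters.

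Levels of different genes were compared per kilobase of exon (GENCODE M21), as CPM per kb. Hspa5, which encodes BiP, the most abundant chaperone of the ER, was highest of the 10 in all 4 groups, with 312 CPM per kb in WT microglia and 161 in WT astrocytes. Atf4 came next in microglia, with 81.1 CPM per kb in WT and 97.5 in APP. In astrocytes the next places belonged to Psat1 and Phgdh, with 118 and 102 CPM per kb in WT and with 82.8 and 53.7 in APP. Psat1 stood in the fourth place in WT microglia, at 13.3 CPM per kb, and in the third in APP microglia, at 71.2. Trib3, Asns and Chac1 were the lowest 3 genes in each group, at or below 1.58 CPM per kb. The plot of every library shows these levels gene by gene.

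**Figure D1:**
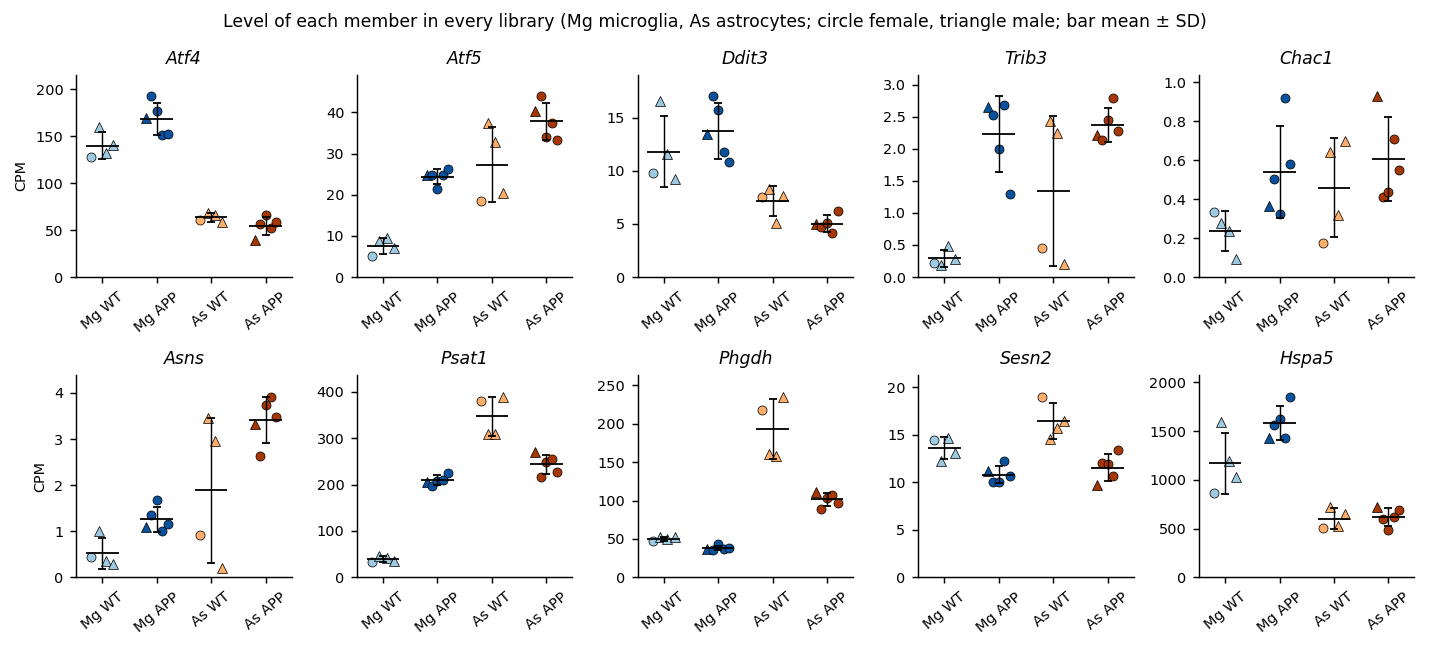
Level of each of the 10 genes in CPM (y axes, from 0, scaled over the 18 libraries) in WT and APP microglia (Mg) and astrocytes (As), with 1 point per library, circles for females, triangles for males and a bar for the mean ± SD. Psat1 shows 5 APP microglia libraries between 197 and 226 CPM and 4 WT ones between 33.4 and 46.2, while both serine enzymes lie lower in APP than in WT astrocytes.

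In APP microglia, 4 of the 10 genes rose (Psat1, Trib3, Atf5 and Hspa5) and 2 fell (Phgdh and Sesn2), so that the first enzyme of serine synthesis went down while the second went up more than 5-fold. Atf4, Ddit3 and Asns did not pass the test, and Chac1 was too low to be tested. The 6 calls among 9 genes tested stand beside 38.3% called among all 13116 genes (19.1% up, 19.2% down). The median log2 fold change of the 9 was 0.50, against 0.01 over all genes. Trib3 and Asns entered the test through their APP libraries, so the counts and the median describe these 9 genes and support nothing further. APP libraries lay wholly on one side of the WT libraries for 5 of the 9 (3 higher, 2 lower), against 39.1% of all genes (20.4% higher, 18.7% lower). Calls are by edgeR's quasi-likelihood test with sex as a covariate at a Benjamini-Hochberg adjusted p under 0.05 over all genes. WT replicate 1 is the only WT female and APP replicate 1 the only APP male, so with the sex term a fit without the first compares genotypes through the APP male alone, and a fit without the second through the WT female alone. Such fits called fewer genes of all kinds in microglia: 19.8% without WT replicate 1 and 17.1% without WT replicates 1 and 4. A call lost there is not by itself a sign that the difference was smaller. For some genes, Hspa5 and Sesn2 among them, the log2 fold change was also smaller in size there, as given below. In bulk libraries, fewer cells of a type and less RNA per cell cannot be told apart.

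Among the transcription factors, Atf4 (chr15:80255184-80257541) was measured in WT microglia at 127, 160, 132 and 140 CPM and in APP microglia at 169, 192, 176, 151 and 152 CPM. The groups overlapped only through WT replicate 2, which lay above APP replicates 4 and 5. The log2 fold change was 0.27 (SE 0.11), with an edgeR adjusted p of 0.0602. Among 22 alternative analyses Atf4 was called in 7, with log2 fold changes from 0.23 to 0.31. Atf5 (chr7:44812256-44816658) is a relative of ATF4 that is likewise translated under stress and has been linked to the mitochondrial stress response. It stood at 5.23, 8.86, 9.44 and 6.93 CPM in WT and at 24.8, 24.8, 21.5, 24.7 and 26.3 CPM in APP microglia. Every APP library was more than 2-fold above every WT library, and Atf5 rose by a log2 fold change of 1.81 (SE 0.16, edgeR adjusted p 5.04e-06), which is 3.51-fold. It was called in all 22 alternatives. Ddit3 (chr10:127290829-127293753) encodes CHOP, which carries prolonged stress towards cell death. Its 4 WT libraries held 9.80, 16.6, 11.6 and 9.28 CPM and its 5 APP libraries 13.4, 17.04, 15.8, 11.8 and 10.8 CPM, which overlap. The log2 fold change was 0.26 (SE 0.22, edgeR adjusted p 0.389), and it was -0.029 without WT replicates 1 and 4.

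Trib3 (chr2:152337422-152344032) encodes a pseudokinase that is induced by ATF4 and CHOP and holds them back in turn. It was close to absent in WT microglia, with 0.22, 0.18, 0.48 and 0.28 CPM, or 2 to 4 reads a library. In APP microglia it had 2.65, 2.52, 2.00, 2.68 and 1.30 CPM, or 20 to 32 reads. The groups did not overlap, and Trib3 rose by a log2 fold change of 3.09 (SE 0.47, edgeR adjusted p 0.000346). It passed the filter on low counts through its APP libraries, and the fold rests on 11 reads over the 4 WT libraries. Trib3 therefore had to be high in APP to be tested, and its call is given as a description. Sesn2 (chr4:132492032-132510501) encodes a stress-inducible protein that senses leucine and restrains the growth kinase mTORC1. It went the other way, with 14.5, 12.3, 14.7 and 13.1 CPM in WT and 11.2, 9.99, 10.1, 12.2 and 10.6 CPM in APP. All APP libraries lay below all WT libraries, by a narrow margin between APP replicate 4 and WT replicate 2. Sesn2 fell by 0.39 on the log2 scale (SE 0.14, edgeR adjusted p 0.0431). That call was lost in 17 of 22 alternatives: leaving out WT replicate 1 gave -0.25 (edgeR adjusted p 0.458), and leaving out WT replicate 3 or 4, or APP replicate 1, 2, 3 or 5, gave adjusted p between 0.0573 and 0.0747. Without WT replicate 1 and without a sex term, an analysis added after the data were seen, Sesn2 stood at -0.30 (edgeR adjusted p 0.0680).

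Of the enzymes, Psat1 (chr19:15904678-15947337) encodes phosphoserine aminotransferase, the second step of serine synthesis. Its WT microglia held 33.4, 46.2, 42.55 and 34.3 CPM and its APP microglia 204, 197, 208, 210.5 and 226 CPM. The gap between the groups was far wider than the spread within either. Psat1 rose by a log2 fold change of 2.44 (SE 0.10, 95% interval 2.25 to 2.63, edgeR adjusted p 1.06e-08), or 5.43-fold, the 29th smallest p among the 13116 genes. The call held in all 22 alternatives, with log2 fold changes from 2.25 to 2.56. Phgdh (chr3:98313170-98339990) encodes phosphoglycerate dehydrogenase, the first step and the entry into the pathway. It had 47.3, 52.3, 49.6 and 52.9 CPM in WT and 36.5, 36.1, 43.1, 36.6 and 38.5 CPM in APP microglia, with no overlap. Phgdh fell by 0.44 on the log2 scale (SE 0.09, edgeR adjusted p 0.00236), to 0.738 of the WT level. It was called in 21 of 22 alternatives, and without WT replicates 1 and 4 it stood at -0.44 with an edgeR adjusted p of 0.0533. Phgdh has 21 near-identical copies elsewhere in the genome, mostly processed pseudogenes, of which 3 are in the tables with 21 reads against 29659 for Phgdh itself. The labels do not state how reads that match several places were counted, so its level is uncertain to that extent. Psat1 has 1 such match, to a gene that was not counted.

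Asns (chr6:7675169-7693254) encodes asparagine synthetase, a classic ATF4 target. It was low, with 0.45, 1.02, 0.36 and 0.28 CPM in WT and 1.10, 1.34, 1.68, 1.00 and 1.17 CPM in APP microglia. The groups overlapped only through WT replicate 2. The log2 fold change was 1.17 (SE 0.51, edgeR adjusted p 0.0926). Among 20 alternative analyses Asns was called in 2, with log2 fold changes from 0.66 to 1.59. The value of 1.59 (edgeR adjusted p 0.0229) came from leaving out WT replicate 2. That library alone made the overlap, so a larger difference without it was fixed beforehand and nothing is read from it. Chac1 (chr2:119351229-119354381) encodes an enzyme that breaks down glutathione and is induced late in the response. It gave 1 to 3 reads in each WT and 4 to 11 in each APP microglia library, at most 0.92 CPM, and was not tested. Hspa5 (chr2:34771970-34777547) had 869.5, 1593, 1194 and 1029 CPM in WT and 1428, 1566, 1624, 1431 and 1856 CPM in APP microglia. WT replicate 2 lay within the APP range, and WT replicates 1 and 4, whose libraries stood apart, were the lowest. Hspa5 rose by a log2 fold change of 0.50 (SE 0.17, edgeR adjusted p 0.0368). It was not called in 11 of 22 alternatives: the log2 fold change was 0.18 without WT replicate 1 (edgeR adjusted p 0.592) and 0.33 when the sex term was left out too (0.0603), and without WT replicate 3 or 4 or APP replicate 2 or 3 the adjusted p lay between 0.0549 and 0.0633.

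**Figure D2:**
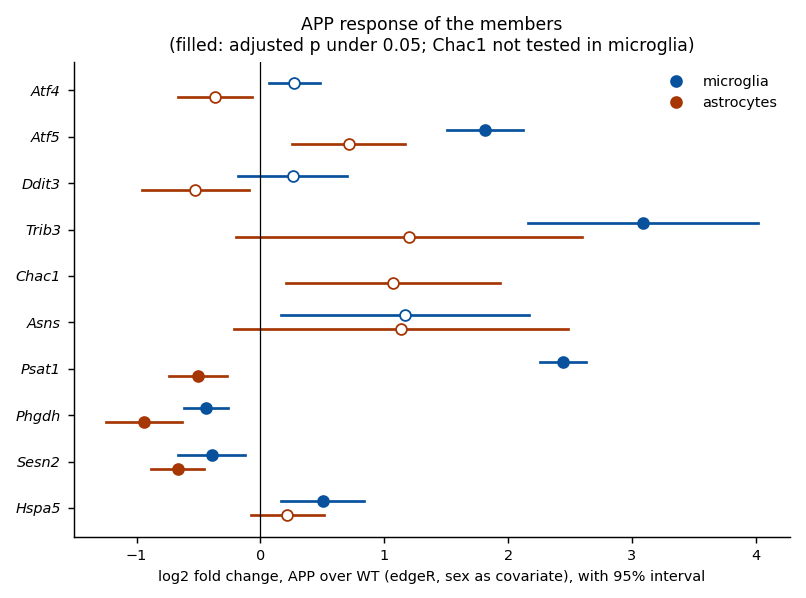
Log2 fold change of APP over WT (x axis) for each gene (y axis) in microglia (blue) and astrocytes (brown), from edgeR with sex as a covariate, with lines for the 95% interval by a normal quantile (narrower than the test implies) and filled points for an adjusted p under 0.05. Psat1 lies at 2.44 in microglia and at -0.50 in astrocytes, while Phgdh and Sesn2 lie below 0 in both cell types.

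In APP astrocytes none of the 10 genes rose, and 3 fell: Phgdh, Psat1 and Sesn2. At an unadjusted p under 0.05, 2 of the 10 were higher and 5 lower, and DESeq2 called 1 rise and 3 falls. These 3 calls among 10 genes tested stand beside 25.6% called among all 14957 genes (12.1% up, 13.5% down). The median log2 fold change of the 10 was -0.07, against 0.01 over all genes. The same 3 genes were those whose APP libraries all lay below all WT libraries, against 21.5% of all genes that did not overlap (9.77% higher, 11.7% lower). Phgdh had 217, 161, 158 and 236 CPM in WT and 111, 89.6, 103, 108 and 96.5 CPM in APP astrocytes. It fell by 0.94 on the log2 scale (SE 0.16, edgeR adjusted p 0.00721), to 0.522 of the WT level. Psat1 had 379.8, 309.6, 309.7 and 388 CPM in WT and 269, 217, 247, 256 and 227 CPM in APP astrocytes, and fell by 0.50 on the log2 scale (SE 0.12, edgeR adjusted p 0.0192). For both enzymes WT replicates 1 and 4 were the highest libraries, and the other 2 WT libraries still lay above every APP library. Sesn2 had 19.0, 14.6, 15.8 and 16.4 CPM in WT and 9.74, 11.996, 11.98, 10.6 and 13.4 CPM in APP astrocytes, and fell by 0.67 on the log2 scale (SE 0.11, edgeR adjusted p 0.00702).

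The makeup of the astrocyte libraries also differed between the groups, and its part in the 3 falls was not tested beyond the values given here. The 12 astrocytic markers themselves summed to 35319.8 to 50795 CPM in WT and to 26649.9 to 31576 CPM in APP astrocytes. Of the 12, 9 fell and 1 rose, which was Gfap (log2 fold change 1.41, edgeR adjusted p 0.00522). Leaving out WT replicate 1, edgeR called none of the 12, with 1 higher and 5 lower at an unadjusted p under 0.05. When the sex term was left out as well, 1 was called up and 3 down. Without WT replicate 1, the only WT female, none of the 10 genes was called and 3 had an unadjusted edgeR p under 0.05: the log2 fold changes were -0.76 for Phgdh (edgeR adjusted p 0.196), -0.34 for Psat1 (0.370) and -0.69 for Sesn2 (0.147). The fold change of Sesn2 was thus as large as with all libraries, and that fit, which rests on the APP male, called 34 genes in all. Without WT replicate 1 and without a sex term, Phgdh was called at -0.88 (edgeR adjusted p 0.0123) and Psat1 at -0.48 (0.0369), and Sesn2 stood at -0.44 (0.0542). Without WT replicates 1 and 4, with the sex term, Phgdh stood at -0.53 (edgeR adjusted p 0.0947), Psat1 at -0.21 (0.402) and Sesn2 at -0.65 (0.147). When the endothelial marker level was added to the model, Phgdh fell by 0.56 on the log2 scale (edgeR adjusted p 0.0410), while Psat1 stood at -0.27 (0.202) and Sesn2 at -0.57 (0.0731).

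The other 7 genes did not pass the test in astrocytes. Atf4 had 60.5, 68.1, 66.2 and 58.9 CPM in WT and 39.7, 56.7, 65.7, 51.9 and 58.5 CPM in APP astrocytes. Its log2 fold change was -0.37 (SE 0.15, edgeR adjusted p 0.104), and 4 of the 5 APP libraries lay below every WT library. Ddit3, at 7.59, 8.28, 5.05 and 7.60 CPM in WT and 4.16 to 6.27 CPM in APP, gave a log2 fold change of -0.52 (edgeR adjusted p 0.102). Hspa5 ran from 507 to 725 CPM in WT and from 485 to 724 CPM in APP astrocytes, nearly the same range, with a log2 fold change of 0.22 (SE 0.15, edgeR adjusted p 0.292). Chac1 was under 1 CPM in each library, at 3 to 14 reads in WT and 9 to 21 in APP.

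Asns, Trib3 and Atf5 split the WT astrocytes in the way the endothelial markers did. Asns had 0.92 and 0.20 CPM in WT replicates 1 and 4, against 3.45 and 2.97 CPM in WT replicates 2 and 3 and 2.64 to 3.92 CPM in APP. Trib3 had 0.46 and 0.20 CPM in the first pair, 2.44 and 2.25 CPM in the second and 2.14 to 2.79 CPM in APP. Atf5 had 18.6 and 20.5 CPM in the first pair, 37.3 and 32.9 CPM in the second and 33.3 to 43.9 CPM in APP. WT replicates 2 and 3 thus lay within or next to the APP range for all 3 genes. The log2 fold changes were 1.14 for Asns (SE 0.69, edgeR adjusted p 0.231), 1.20 for Trib3 (SE 0.71, 0.222) and 0.71 for Atf5 (SE 0.23, 0.0523). Without WT replicates 1 and 4 they were 0.040, -0.091 and 0.20, and with the endothelial marker level in the model they were -0.20, -0.22 and 0.18. Several other lists split the WT astrocytes likewise. Immediate early and heat shock genes (19, described below) summed to 667 and 651 CPM in the first pair. In the second pair they summed to 1883 and 1277 CPM. The 9 mural markers had 1204 and 699 CPM against 1979 and 1940 CPM. The 7 ependymal and choroid markers had 97.0 and 420 CPM against 1117 and 717 CPM. Astrocytic markers were instead higher in the first pair. The part of endothelial RNA, or of RNA from these other lists, in the levels of the 3 genes was not tested beyond the values given.

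**Figure D3:**
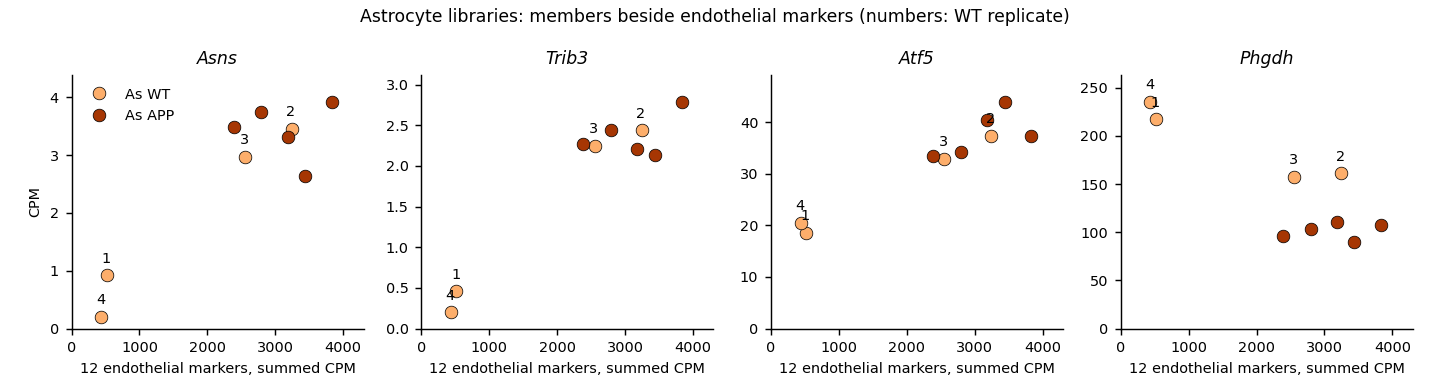
Level in CPM (y axes) of Asns, Trib3, Atf5 and Phgdh in the 9 astrocyte libraries against the summed CPM of 12 endothelial markers (x axes), with WT libraries in light and APP libraries in dark brown and WT replicates numbered. WT replicates 1 and 4, at 518 and 438 CPM of endothelial markers, are the lowest libraries for Asns, Trib3 and Atf5 and the highest for Phgdh.

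The responses of the cell types were then set against each other in 1 fit over the 18 libraries, as microglia minus astrocytes. They differed for 3 of the 10 genes, beside 21.4% of all 15550 genes (12.5% with the higher response in microglia and 8.91% in astrocytes), and in each the response of microglia was the higher. For Psat1 the difference of the log2 fold changes was 2.99 (SE 0.18, 95% interval 2.64 to 3.35, edgeR adjusted p 4.85e-08), the 11th smallest p of all genes. For Atf5 it was 1.14 (SE 0.31, edgeR adjusted p 0.0160), and for Atf4 0.68 (SE 0.20, edgeR adjusted p 0.0225), where neither cell type alone had passed. Psat1 was called in all 15 alternatives. Without the mouse of APP replicate 1, where the single WT female carries the comparison of genotypes and 15.8% of all genes were called, the difference was 0.31 for Atf4 (edgeR adjusted p 0.387) and 1.07 for Atf5 (0.0881). Atf5 was also not called without the mouse of WT replicate 1 (1.15, edgeR adjusted p 0.103), where the APP male carries it and 5.45% of all genes were called. Atf4 was not called without WT replicate 2 (0.59, edgeR adjusted p 0.0543) or 3 (0.55, 0.0770), or without the filter on low counts (0.61, 0.0501). Phgdh fell in both cell types, and its difference of 0.55 (SE 0.19, 95% interval 0.16 to 0.93) had an edgeR adjusted p of 0.0581. For Sesn2 the difference was 0.32 (95% interval 0.01 to 0.64, edgeR adjusted p 0.180), and for Hspa5 0.33 (95% interval -0.22 to 0.87, edgeR adjusted p 0.460). The interval of Sesn2 leaves out 0 although its unadjusted edgeR p was 0.0637. These intervals use a normal quantile and are narrower than the test implies.

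The balance of the first and second enzyme of serine synthesis therefore differed between all 4 groups. Per kilobase of exon, Psat1 over Phgdh was 0.499 ± 0.073 (SD, n = 4) in WT microglia and 3.55 ± 0.26 (SD, n = 5) in APP microglia. In astrocytes it was 1.17 ± 0.096 (SD, n = 4) in WT and 1.54 ± 0.020 (SD, n = 5) in APP, so it was higher in APP also where both mRNAs had fallen. The lowest APP library lay above the highest WT library in each cell type, with 3.11 against 0.569 in microglia and 1.52 against 1.27 in astrocytes. In CPM, APP microglia came within reach of APP astrocytes for Psat1 (197 to 226 against 217 to 269), while for Phgdh they stayed below (36.1 to 43.1 against 89.6 to 111). Astrocytic RNA in the microglia libraries could account, by the marker share of each mouse, for 12.1 CPM of Psat1 in WT and 10.2 CPM in APP. This estimate takes all astrocytic marker RNA in microglia libraries as carried over, which was not tested. After its subtraction Psat1 was 27.0 ± 1.1 CPM (SD, n = 4) in WT and 199 ± 13 CPM (SD, n = 5) in APP microglia, a ratio of 7.38. Phgdh was 44.0 ± 2.8 CPM (SD, n = 4) and 33.9 ± 4.3 CPM (SD, n = 5) after the same step. Microglial RNA could account for at most 3.42% of any of the 10 genes in an APP astrocyte library.

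**Figure D4:**
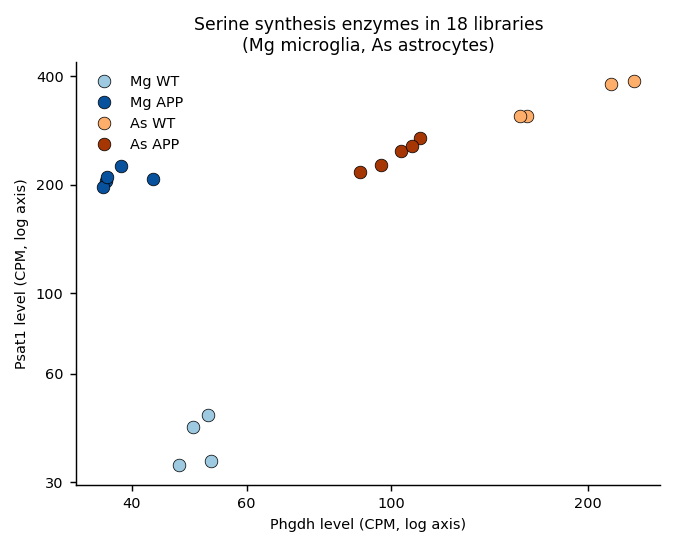
Psat1 (y axis) against Phgdh (x axis) in CPM on log axes, with 1 point for each of the 18 libraries, microglia in blue and astrocytes in brown, WT in light and APP in dark. WT and APP microglia differ about 5-fold along the Psat1 axis and little along the Phgdh axis, while APP astrocytes lie lower than WT astrocytes on both.

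Between the cell types of WT mice, 9 of the 10 genes differed, beside 80.1% of all 15550 genes: 3 were higher in microglia, beside 37.9% of all genes, and 6 lower, beside 42.3%. Psat1 was lower in microglia than in astrocytes by a log2 difference of -3.18 (SE 0.13, edgeR adjusted p 3.92e-12) and Phgdh by -1.94 (SE 0.13, edgeR adjusted p 1.8e-09). Atf5 (-1.81), Trib3 (-2.16), Asns (-1.69) and Sesn2 (-0.33) were lower in microglia as well. For Trib3 and Asns the lower level rested on WT astrocyte replicates 2 and 3. In WT astrocyte replicates 1 and 4, Trib3 had 0.46 and 0.20 CPM, against 0.18 to 0.48 CPM in WT microglia. Asns had 0.92 and 0.20 CPM in the same astrocyte libraries, against 0.28 to 1.02 CPM in WT microglia. Atf4 was higher in microglia by 1.05 (SE 0.13, edgeR adjusted p 2.31e-06), Hspa5 by 0.98 and Ddit3 by 0.68. Chac1 stood at -0.41 (edgeR adjusted p 0.471). The calls of Trib3, Asns and Sesn2 are the less steady ones. Trib3 had an edgeR adjusted p of 0.0597 without WT replicate 2 and of 0.0607 without APP replicate 1. Asns lost its call without WT replicate 1 (0.0706) or 3 (0.0992) or APP replicate 1 (0.0728) and with limma voom (0.0884). Sesn2 lost it without WT replicate 1 (0.0517), without APP replicate 1 (0.0526) and without WT replicates 1 and 4 together (0.148).

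The rest of the pathway was read from lists of genes by role. Each count below stands beside the same shares of all genes: 38.3% called in microglia (19.1% up, 19.2% down) and 25.6% in astrocytes (12.1% up, 13.5% down). A list near these shares is not set apart by its count. Fits without WT replicate 1 rest on the APP male, as above. Of the 7 genes named below whose call in microglia was lost there, 5 were called when the sex term was left out as well, and Shmt1 (edgeR adjusted p 0.139) and Ern1 (0.0942) were not. A list of 14 genes held those for eIF2, its kinases, its exchange factor eIF2B and its phosphatase subunits, and Oma1. Of these, 1 rose and 3 fell in microglia. The gene that rose was Ppp1r15a, which encodes GADD34, the inducible subunit that brings the phosphatase back to eIF2, with a log2 fold change of 0.84 (edgeR adjusted p 0.000292). Oma1, the mitochondrial protease that relays mitochondrial faults to an eIF2 kinase, fell by 0.64, and Eif2ak3, the kinase PERK of the ER, fell by 0.30. The fall of Eif2ak3 was not called without WT replicate 1 (edgeR adjusted p 0.389). In astrocytes 1 gene rose and 3 fell: Eif2ak2, the kinase PKR that is known as an interferon-induced gene, rose by 0.67, and Eif2b4 and Eif2b2, subunits of eIF2B, fell by 0.43 and 0.34. Without WT replicate 1 these 3 had edgeR adjusted p of 0.184, 0.196 and 0.306, and without APP replicate 1 of 0.0597, 0.144 and 0.0923. Leaving out APP replicate 2 gave 0.0503 for Eif2b4, and leaving out APP replicate 3 gave 0.0538 for Eif2b2.

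Of 7 further transcription factors and regulators of the response, Atf3 rose in microglia by a log2 fold change of 0.99 (edgeR adjusted p 0.000733) and Nfe2l2, which encodes the antioxidant factor NRF2, by 0.39. The call of Nfe2l2 was lost without WT replicate 1 (edgeR adjusted p 0.391). Of 12 other ATF4 and stress targets tested in microglia 3 rose and 2 fell, and of 13 tested in astrocytes none rose and 6 fell (edgeR; at an unadjusted p under 0.05, 1 was higher and 7 lower, and DESeq2 called 1 rise). Gdf15, a secreted stress cytokine, rose in microglia by 1.68 and Ero1l, which feeds oxidising power to the ER, by 0.82, while Sesn1, a relative of Sesn2, fell by 0.84. In astrocytes Vegfa, the vascular growth factor, fell by 1.16, Cth, which makes cysteine, by 0.98 and Ddit4, an inhibitor of mTORC1, by 0.85. Vegfa also belongs to the response to low oxygen. These 3 had edgeR adjusted p of 0.0794, 0.191 and 0.141 when WT replicate 1 was left out. A list of 19 immediate early and heat shock genes holds Atf3 too, and sorting and warm enzymatic dissociation can raise such genes. It moved with the microglial comparison, with 10 genes up and 1 down. The list summed to 11706 to 16368 CPM in WT and to 18679 to 22081 CPM in APP microglia. In astrocytes edgeR called none of the 19, with 7 higher and 0 lower at an unadjusted p under 0.05. DESeq2 called 8 up and 0 down there. The median log2 fold change was 0.49 in microglia and 0.995 in astrocytes. The part of this list in the results of either cell type was not tested.

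Of 19 further genes of serine, glycine and folate-bound one-carbon metabolism, only 1 rose in microglia and 2 fell, with a median log2 fold change of 0.15. Aldh1l2, a mitochondrial folate enzyme, rose by 0.78, while Mtr, methionine synthase, fell by 0.48 and Shmt1, the cytosolic serine hydroxymethyltransferase, by 0.92. The call of Shmt1 was lost without WT replicate 1 (edgeR adjusted p 0.270), and that of Aldh1l2 without APP replicate 1 (0.103). Psph, the third enzyme of serine synthesis, named here for its place in the pathway after its values were seen, stood at 0.35 in microglia (SE 0.24, edgeR adjusted p 0.268) and fell by 0.47 in astrocytes (SE 0.10, edgeR adjusted p 0.0143). In astrocytes 2 of the 19 rose and 6 fell, with a median of -0.24. Gldc, a subunit of the glycine cleavage system, fell by 1.07 and Aldh1l1, the folate enzyme used as an astrocyte marker, by 1.00, while Mthfd1l, a mitochondrial folate enzyme, rose by 1.13. With WT replicate 1 left out, edgeR called none of the 19 in astrocytes, where 2 were higher and 3 lower at an unadjusted p under 0.05.

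Among 20 cytosolic tRNA synthetases, many of which ATF4 is known to induce, 6 rose and 4 fell in microglia (median 0.05, beside 19.1% of all genes up and 19.2% down), and 1 rose and 5 fell in astrocytes (median -0.17). Eprs rose in microglia by 0.60, Qars by 0.49 and Sars by 0.44, and the calls of Qars and Sars were lost without WT replicate 1 (edgeR adjusted p 0.0663 and 0.0659). Of the amino acid transporters, 2 of 12 rose and 3 fell in microglia, and 1 of 13 rose and 3 fell in astrocytes. Slc1a5, a carrier of glutamine and serine, rose in microglia by 1.39 (SE 0.17, edgeR adjusted p 7.86e-05), and Slc7a5, the large neutral amino acid carrier, fell by 0.67. Slc7a5 was not called without WT replicate 1 (edgeR adjusted p 0.159). Slc38a1, a glutamine carrier, rose in astrocytes by 1.49, and Slc1a4, a serine and alanine carrier, fell by 0.87, with edgeR adjusted p of 0.143 and 0.277 without WT replicate 1.

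Among the ER chaperones, rises outnumbered falls in microglia. Besides Hspa5, 9 of 16 genes of ER chaperones and folding enzymes rose and none fell, beside 19.1% of all genes up and 19.2% down, with a median log2 fold change of 0.38 against 0.01 over all genes. DESeq2 gave the same counts, and at an unadjusted edgeR p under 0.05, 11 were higher and 1 lower. The 16 summed to 4103 to 5258 CPM in WT and 5984 to 7310 CPM in APP microglia. Sdf2l1, a partner of BiP, rose by 1.35 (SE 0.12, edgeR adjusted p 6.47e-06), Calr, the lectin chaperone calreticulin, by 0.69 and Hsp90b1, the chaperone GRP94, by 0.58. Without WT replicate 1, 4 genes were called up and 1 down, and 7 and 1 when the sex term was left out as well. Without WT replicates 1 and 4 there were 3 up and 1 down, and 7 and 0 without the sex term (1 lower at an unadjusted edgeR p under 0.05). In astrocytes 5 of the 16 rose and 1 fell, and without WT replicate 1 edgeR called none, with 1 higher at an unadjusted p under 0.05. Among 15 ER sensors and genes of ER-associated degradation, 1 rose (Creb3l2, 0.64) and 1 fell (Ern1, the sensor IRE1, by 0.32) in microglia, the latter not without WT replicate 1 (edgeR adjusted p 0.346). A list of 9 genes held mitochondrial chaperones and proteases, and Timm17a of protein import. Of these, 5 rose and 1 fell in microglia, with Hspe1, the co-chaperonin, at 1.20 and Hspa9, mitochondrial HSP70, at 0.49. Without WT replicate 1, edgeR called 2 of the 9 higher and none lower, and at an unadjusted p under 0.05, 3 were higher and 1 lower.

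**Figure D5:**
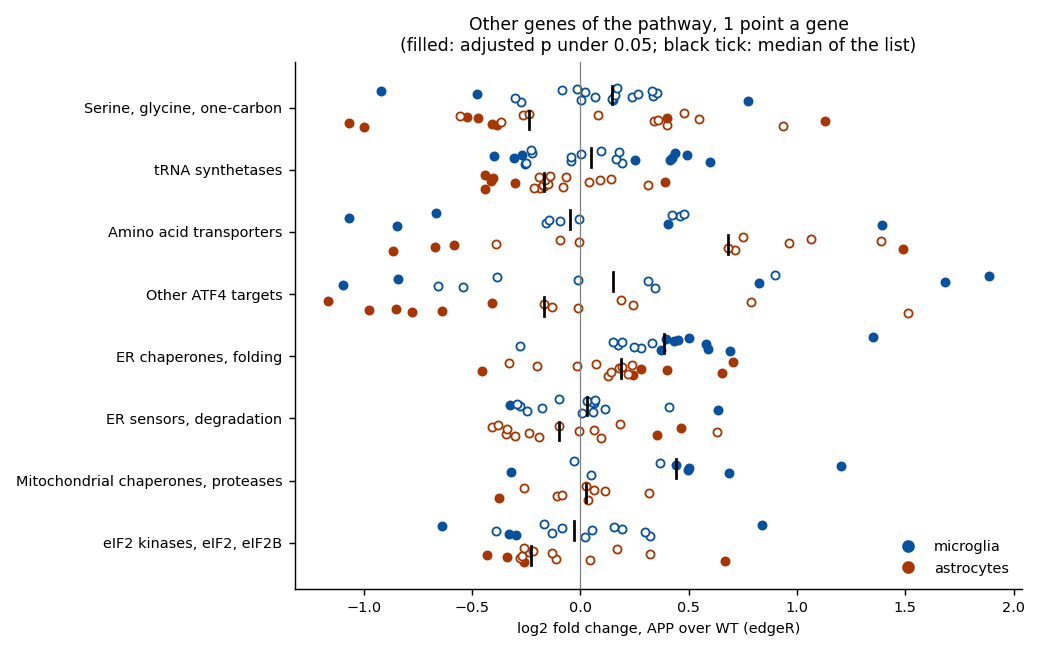
Log2 fold change of APP over WT (x axis) for the other genes of the pathway, 1 point a gene, by list (y axis), in microglia (blue) and astrocytes (brown), with filled points for an edgeR adjusted p under 0.05 and a black tick at the median of the genes tested. The ER chaperones in microglia lie mostly right of 0, with 9 of 16 filled and a median of 0.38, while the one-carbon genes spread to both sides.

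To see which genes had profiles most like theirs, log2 CPM over the 18 libraries, centred on its mean, was compared among 11431 genes by the root mean square difference. For Atf4 the nearest were Brd2 (0.134), Nol4l (0.153) and Dnmt3a (0.161), all higher in microglia than in astrocytes. Brd2 had a mean of 352 CPM in WT and of 399.8 CPM in APP microglia. For Phgdh the nearest were Cox10 (0.139), Ttyh3 (0.158) and Tubb2a (0.168), all highest in WT astrocytes. Cox10, which encodes an enzyme of haem A synthesis, had means of 65.1 CPM in WT and 32.2 CPM in APP astrocytes. These distances describe the 18 libraries, which share cell type, genotype and makeup.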

How the data were processed

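Bulk RNA-seq libraries of sorted microglia and astrocytes from 9 mice were used (4 WT and 5 APP in each cell type). The submitters' processing notes name STAR 2.7.3a with the build mm10, SAMtools 1.9, Trimmomatic 0.39, FastQC 0.11.8, limma 3.46.0 and edgeR 3.32.1. How reads were assigned to genes, with which annotation and strand setting, is not stated there. The deposited raw tables hold whole read counts per gene, and outliers had been left out, per the names of the deposited tables. The deposited normalized tables hold log2 values, which equal log2 of the count plus 0.5 up to 1 constant per library, and served only as an alternative.

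Microglia and astrocytes were fitted separately in R 4.3.3 with edgeR 4.0.16: filterByExpr (minimum count 10, minimum total 15), TMM, the quasi-likelihood F-test for genotype with sex in the model, and Benjamini-Hochberg adjustment over all genes tested. The interaction and the WT cell types used 1 fit of 18 libraries with cell type by sex. SE is the standard error of a log2 fold change. Levels are CPM on 1 TMM scale. The share of the other cell type is a mouse's summed markers relative to its library of that type. Gene positions come from GENCODE M21 on GRCm38, matches to transcripts of other genes from blastn 2.17.0+ (at least 90% identity over 100 bases), and promoter windows from RefSeq on GRCm38.p6.

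The members and lists were chosen with earlier results of these data known. Named list genes are up to 3 called genes a list and comparison by adjusted p, given in part, and the 3 nearest profiles to Atf4 and Phgdh. Alternatives were DESeq2 1.42.0, limma 3.58.1 (voom and the deposited values), no filter, 50 counts in 4 libraries, no sex term, each sex alone, single libraries left out, WT replicates 1 and 4 left out, the endothelial level as a covariate and replicate blocks. Fits without WT replicate 1, or 1 and 4, and without a sex term were added after the data were seen. After subtraction of group means, both libraries of a mouse correlated at r of 0.0598 to 0.365 (9 pairs), and sharing an animal pairs them across cell types. Replicates are separate mice. The tests were tested on simulated data with known changes. Those data had the same dispersion for all genes and no effect of sex, of mouse or of WT replicates 1 and 4. They therefore say nothing on how the calls depend on these.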

Additional observations from a re-analysis of the deposited data

Results flagged for a closer look

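For 3 of the 10 genes the response to the knock-in differed between microglia and astrocytes in the edgeR interaction test. The difference, as log2 fold change in microglia minus that in astrocytes, was 2.99 for Psat1, 1.14 for Atf5 and 0.68 for Atf4. Psat1 is the gene whose 2 responses have opposite signs and are both called, with all 5 APP libraries above all 4 WT libraries in microglia and all below them in astrocytes. Its call in astrocytes was lost in 6 of 22 alternatives, with log2 fold changes from -0.70 to -0.21 over the 22. Each of the 40 groups of libraries, 10 genes in 4 groups, was also searched for a single library far from the rest by Dixon's criterion, and 0 were found.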

How the results depend on the processing

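In microglia, Psat1 and Atf5 kept their direction and call in 22 of 22 alternatives. Of the 10 genes, 6 were called, 3 without WT replicates 1 and 4 together, and 4 to 7 with 1 library left out. In astrocytes 3 were called, against 6 in females only (1 WT female against 4 APP females), 1 with the endothelial level as a covariate, 1 without WT replicates 1 and 4 and without a sex term, and 0 to 4 with 1 library left out. By the edgeR test there were 0 calls in males only, 0 without WT replicate 1 and 0 without WT replicates 1 and 4 together, where 2, 3 and 3 of the 10 had an unadjusted p under 0.05. In these 3 fits 1 APP male is set against 3, 3 and 2 WT males. The difference between the responses was called for 3 genes, for 5 without a sex term and for 1 to 3 with 1 mouse left out (1 without APP replicate 1). Between the WT cell types 9 were called, and 6 to 9 with 1 mouse left out.

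The sign changed only for values that were not called. In microglia, Ddit3 was -0.029 and Psph -0.033 without WT replicates 1 and 4 together, and Ddit3 was -0.031 with the endothelial covariate. In astrocytes, Trib3 was -0.091 and -0.22 under the same settings, Asns was -0.20 with the endothelial covariate, and Hspa5 was -0.020 without WT replicates 1 and 4 and -0.039 without WT replicate 1, both without a sex term. For the difference between the responses, Chac1 was 0.73 without a sex term and -0.94 to 0.042 with 1 mouse left out (0.042 without WT replicate 1). Asns was -0.047 with DESeq2 and -0.50 to 0.46 with 1 mouse left out, below 0 without WT replicate 3 (-0.26), APP replicate 1 (-0.50) or APP replicate 3 (-0.035). Hspa5 was -0.17 without WT replicates 1 and 4 and -0.019 to 0.52 with 1 mouse left out, below 0 without WT replicate 1. The causes of these changes of sign were not tested.

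Replicate numbers do not mark the same mouse across genotypes, and same-numbered libraries correlated at r of -0.28 to 0.12 relative to their groups. With the replicate number as a block, 6 genes were called in microglia and 2 in astrocytes. With the mouse as a replicate block, which pairs the cell types, 3 differed between the responses and 9 between the WT cell types. Depth limits Trib3, Asns and Chac1 most, which had 1 to 11 reads a library in WT microglia.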
